A study of Drosophila melanogaster and Drosophila simulans with 11 samples.

Results

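The chromosome 4 genes *Ank*, *Rad23*, *CG2177*, *PMCA*, *Mitf* and *Dyrk3* of *Drosophila melanogaster* lie in stretches that carry MSL proteins in *roX* mutants, and the binding profiles over these stretches are described here. These 6 genes were chosen by the study from the binding seen in the same *roX* mutant libraries, so their high MSL1 and MOF levels in *roX* mutants are the values that selected them and are given as a description, without a test. They are 6 of the 80 protein-coding genes that the RefSeq annotation lists on chromosome 4, and of 13962 in the whole annotation. They were read in 3 stretches of the release 5 reference, chr4:100000-180000 for *Ank* (the Ankyrin window), chr4:310000-400000 for *Rad23*, *CG2177* and *PMCA* (the Rad23 window) and chr4:1200000-1285040 for *Mitf* and *Dyrk3* (the Mitf window). In *roX* mutants MSL1 had a value in 215 bins of 1 kb in these windows, in 825 bins of the rest of chromosome 4 and in 72574 bins of the whole genome.

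The MSL (male-specific lethal) complex binds the single X-chromosome of *Drosophila* males and raises the output of its genes. MSL1 is the scaffold of the complex, MSL2 is the male-specific subunit that joins MSL1 at the first binding sites, and MOF is the acetyltransferase that places H4K16ac. The *roX1* and *roX2* RNAs are the non-coding RNA components. Chromosome 4 is small and largely heterochromatic, and in wild type males it is not a regular target of the complex.

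The 6 genes have unrelated known functions. *Ank* encodes an ankyrin, an adaptor between membrane proteins and the spectrin skeleton. Rad23 carries ubiquitylated proteins to the proteasome and takes part in nucleotide excision repair, CG2177 (listed as *Zip102B* by RefSeq) is named as a member of the ZIP family of zinc transporters, and PMCA is the calcium pump of the plasma membrane. Mitf is a basic helix-loop-helix leucine zipper transcription factor of lysosomal genes, and Dyrk3 is a protein kinase of the DYRK family. Counted along the chromosome, *Ank* is protein-coding gene number 6 of 80, *Rad23*, *CG2177* and *PMCA* are numbers 22, 23 and 25 with *Rnf11* at 24, and *Mitf* and *Dyrk3* are the neighbours 78 and 79. No gene positions of release 5 were used here, so that a value inside a window cannot be assigned to 1 of its genes, to an exon or to an intron.

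DNA bound by MSL1, MSL2 and MOF was measured by ChIP-seq in salivary glands of 3rd instar larvae grown at 25°C, with 125 glands per sample. The *roX* mutants were y w males with the *roX1* allele roX1[ex6] and the *roX2* deficiency Df(1)roX2[52] together with the transgene P[w+ 4Δ4.3] on their X-chromosome, and 3 libraries, MSL1, MOF and MSL2, were read. Wild type was Oregon R with 2 libraries, MOF and MSL2, while wild type MSL1 was lost according to the methods and is not analysed here, so that no wild type value stands beside the MSL1 domains. There is 1 library per antibody and genotype. No test between genotypes is therefore possible, and the spread quoted is that between bins of 1 library, which are not replicates. Both genotypes differ in strain as well as in *roX*, which cannot be told apart, and the tissue label cannot be checked in DNA libraries.

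The values are log2 ratios of ChIP to input, averaged in bins of 1 kb that hold at least 25 of 100 possible values. A log2 ratio of 1, a 2-fold enrichment, was taken as the limit of a domain. The rest of chromosome 4, which is all of it outside the 3 windows, had median bin levels of -0.061 for MSL1, -0.0030 for MOF and -0.19 for MSL2 in *roX* mutants, and of -0.44 for MOF and 0.049 for MSL2 in wild type. No bin there reached 1 in any of the 5 libraries. The highest MSL1 bin outside the windows was at 0.89 and lay directly before the Mitf window, and the next was at 0.79, 187 kb from the nearest window. Just inside the limit was a bin of the Ankyrin window at 1.00, and just below it a bin of the Mitf window at 0.99.

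In *roX* mutants 96 of the 215 MSL1 bins in the windows were at 1 or more, where 2.26% of all bins in the genome were. These 96 bins are the domains, 26 in the Ankyrin window, 39 in the Rad23 window and 31 in the Mitf window. Over all domain bins, which are at 1 or more by definition, the median MSL1 level was 1.60 in the Ankyrin domain, 1.65 in the Rad23 domain and 1.40 in the Mitf domain. Over the stretch that holds the highest bin it was 1.66, 1.85 and 3.68 in the same order, and the 3 domains had different shapes.

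**Figure D1:**
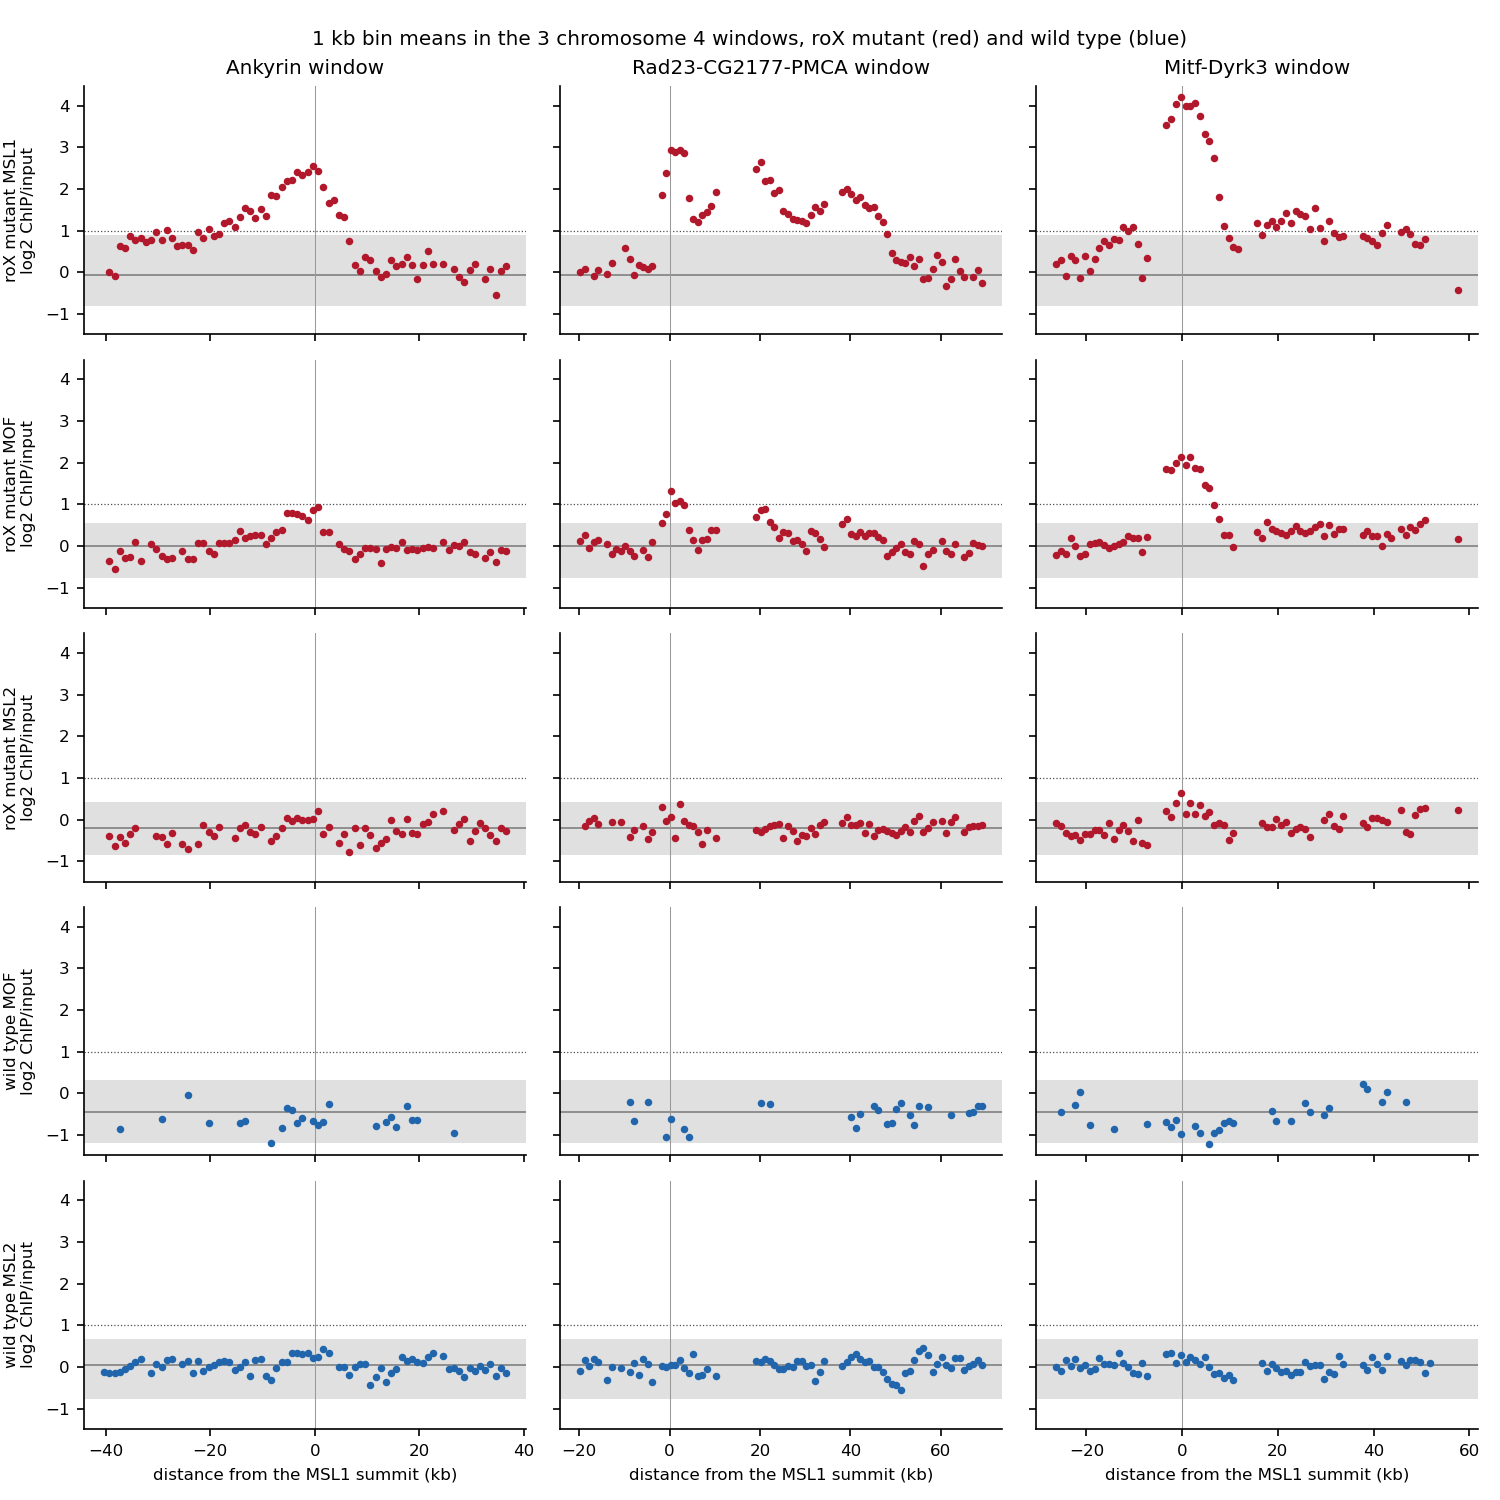
Mean log2 ratio of ChIP to input in 1 kb bins (points, y axis) against the distance in kb from the position of highest smoothed MSL1 (x axis), for the 3 windows (columns) and the 5 libraries (rows, *roX* mutant red, wild type blue); the grey band spans the lowest to the highest bin of the rest of chromosome 4, the grey line is its median and the dotted line a log2 ratio of 1. MSL1 forms a slow ramp in the Ankyrin window, several peaks in the Rad23 window and a plateau of up to 4.20 in the Mitf window, with a lower MOF profile under each. At 0.5 of the highest bin *roX* mutant MOF is 7, 5 and 10 kb wide in these windows, where MSL1 is 21, 7 and 11 kb wide.

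Over the Ankyrin window MSL1 formed a ramp. The bin means were 0.63 at 105001 to 106000, 0.97 at 120001 to 121000, 1.54 at 129001 to 130000 and 2.05 at 136001 to 137000, up to the highest bin of 2.55 at 142001 to 143000. Behind this bin the level dropped within a few kb, to 1.66 at 145001 to 146000, 0.76 at 149001 to 150000 and 0.16 at 150001 to 151000. The side with lower coordinates was thus the gradual one and the side with higher coordinates the steep one. The stretch at or above 1 covered 122001 to 149000, which is 27 kb with 25 such bins, and at 0.5 of the highest level the profile was 21 kb wide, 14 kb before the highest bin and 6 kb after it. From these edges the level needed 9 kb to come down to 0.25 of the highest bin on the gradual side and 2 kb on the steep side. The 20 kb that follow the window had a median of -0.17.

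The Rad23 window held the most domain bins and several peaks. MSL1 was at 0.16 at 326001 to 327000, had too few values in the next bin, and stood at 1.85 at 328001 to 329000, so that the low-coordinate edge was crossed within 2 kb. From 330001 to 334000 the bin means were 2.94, 2.88, 2.93 and 2.87. They then sank to 1.21 at 336001 to 337000 and climbed again to 1.93 in the last bin before a stretch of 8.3 kb (340530 to 348830) without a value in any of the 5 libraries. Beyond that stretch MSL1 was at 2.49 and 2.64 in the first pair of bins, at 1.18 at 360001 to 361000 and at 2.00 at 369001 to 370000. It left the domain with bin means of 1.20, 0.91, 0.46 and 0.30 in the last bins before 381000.

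By the rule used for the width, which joins bins at or above 1 over gaps of up to 3 bins, the Rad23 window thus had one stretch of 13 kb (328001 to 341000) and another of 29 kb (349001 to 378000), with highest bins of 2.94 and 2.64. Whether they are 1 domain cannot be told from these files, because nothing was measured between them. A second, shorter interval without any value, 364740 to 367100, lies inside the longer stretch.

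The Mitf window had the strongest MSL1 peak of the 3. In the 13 bins from 1223001 to 1236000 the means were 3.53, 3.68, 4.04, 4.20, 3.98, 3.99, 4.06, 3.76, 3.31, 3.16, 2.74, 1.81 and 1.12. The first of these bins was already near the plateau, and the 2.9 kb before it (1220160 to 1223060) had no MSL1 value, with 0.35 in the last bin before that gap. The form of the low-coordinate edge is therefore unknown. At 0.5 of the highest level the peak was 11 kb wide.

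Lower MSL1 binding went on around this peak. A shoulder of 16 kb (1242001 to 1258000) had 14 bins at or above 1 with a median of 1.23 and a highest bin of 1.53. From 1238340 to 1242310, directly before it, there was no MSL1 value, so where the shoulder begins is unknown. Smaller stretches of 3 kb and 5 kb, each with only 2 bins at or above 1, lay at 1214001 to 1217000 and 1269001 to 1274000. The window's 37 other bins had a median of 0.67, where the 48 other bins of the Ankyrin window had 0.25 and the 34 of the Rad23 window 0.10. The 20 kb before the Mitf window also had a raised median of 0.42, where the other flanks of 20 kb had medians between -0.17 and -0.046.

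The widths depend on how a domain is defined. At a log2 ratio of 0.5 the main stretch was 45 kb in the Ankyrin window and 55 kb in the Mitf window, and at 1.5 that of the Rad23 window was 7 kb. With the bound regions defined in the study's methods, the region of highest value covered 9.04 kb in the Ankyrin window, 3.30 kb in the Rad23 window and 11.46 kb in the Mitf window. The Ankyrin window then held 5 MSL1 regions, the Rad23 window 10 and the Mitf window 3, so that the broad profiles of the Ankyrin and Rad23 windows were split and the Mitf peak remained whole.

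At the limit of 1, the longest measured stretches on chromosome 4 were longer than those on X in the same library. On X, MSL1 in *roX* mutants had 156 stretches at or above 1 by the same rule, with a median span of 5 kb and a longest span of 26 kb. None of them was as long as the 27 kb of the Ankyrin window or the 29 kb of the Rad23 window, and 11 were at least 13 kb. The heights were within the range on X. The highest bin of the Ankyrin window was reached by 51 stretches on X, that of the Rad23 window by 39 and that of the Mitf window by 2. Counted as single bins, 151, 99 and 2 of 3479 on X reached these heights. On the autosomal arms, without the 2 Mb at their centromere ends, 12, 5 and 0 of 61848 bins did. The paper reports MSL binding that grows towards the centromeres in *roX* mutants, and these ends were not counted. MSL1 had values in 3479 bins of X, where wild type MSL2 had values in 15906, so a longer stretch in the unmeasured remainder could not be seen. A stretch ends where more than 3 bins lack a value, so the sparse values can also shorten the stretches on X. Spans on X were not recomputed at other limits, and at 1.5 the Ankyrin stretch was 18 kb.

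MOF followed MSL1 inside each window at a lower level. The median MOF bin in *roX* mutants was 0.27 in the Ankyrin domain, 0.32 in the Rad23 domain and 0.47 in the Mitf domain, against -0.0030 in the rest of chromosome 4. MOF reached 1 in 13 of 214 window bins, where 0.371% of all bins in the genome did, and those 13 were 0 in the Ankyrin window, 3 in the Rad23 window and 10 in the Mitf window. The highest bin of the rest of chromosome 4, at 0.55, was exceeded by 7 of 25 MOF bins in the Ankyrin domain, 11 of 39 in the Rad23 domain and 13 of 31 in the Mitf domain.

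In the Ankyrin window MOF was low along most of the MSL1 ramp and high near its top. The 7 bins from 137001 to 144000 were at 0.80, 0.79, 0.77, 0.73, 0.62, 0.86 and 0.93, and this was also the 7 kb width at 0.5 of the highest level. They are the 7 bins of the domain above the highest bin of the rest of chromosome 4. The bins before them, from 128001 to 137000, were at 0.35, 0.19, 0.23, 0.27, 0.27, 0.04, 0.19, 0.34 and 0.39, with MSL1 between 1.30 and 2.05, so that all were above the median of the rest of chromosome 4 but none above its highest bin. In all, 22 of the 25 MOF bins of the domain were above that median. Further down the ramp, where MSL1 was below 1, MOF was at 0.10 at 108001 to 109000, -0.26 at 107001 to 108000 and -0.32 at 119001 to 120000.

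In the Rad23 window each MSL1 peak had its MOF peak. From 328001 to 334000 the MOF bins were at 0.56, 0.77, 1.32, 1.03, 1.08 and 0.98, and MOF was down to -0.09 at 336001 to 337000, where MSL1 was still at 1.21. After the interval without values MOF was at 0.68, 0.87 and 0.89, and at the last MSL1 peak it was at 0.64. Between these peaks, at 360001 to 361000, it was at -0.12 with MSL1 at 1.18.

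In the 13 bins of the Mitf peak MOF was at 1.84, 1.83, 1.98, 2.12, 1.94, 2.14, 1.88, 1.84, 1.46, 1.39, 0.98, 0.65 and 0.26. It was 10 kb wide at 0.5 of its highest level, where MSL1 was 11 kb wide, and it had the same outline. In the shoulder MOF was between 0.19 and 0.58 with a median over the domain bins of 0.36. The bound MOF regions in the windows numbered 4, 4 and 2, and that of the Mitf peak covered 1223060 to 1234340, where the MSL1 region covered 1223050 to 1234510.

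The positions of highest smoothed signal lay close together for both proteins. Counted towards higher coordinates, the MOF maximum was 0.03 kb from that of MSL1 in the Ankyrin window, -0.10 kb in the Rad23 window and 1.57 kb in the Mitf window. Across the bins of a window Pearson's r between MSL1 and MOF was 0.81 in the Ankyrin window (71 bins), 0.85 in the Rad23 window (70 bins) and 0.96 in the Mitf window (67 bins), where it was 0.16 over 823 bins of the rest of chromosome 4, in which MSL1 did not exceed 0.89, and 0.85 over 1437 bins of X. These are descriptions without a test, since neighbouring bins are not independent and both libraries were set against the same input.

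**Figure D2:**
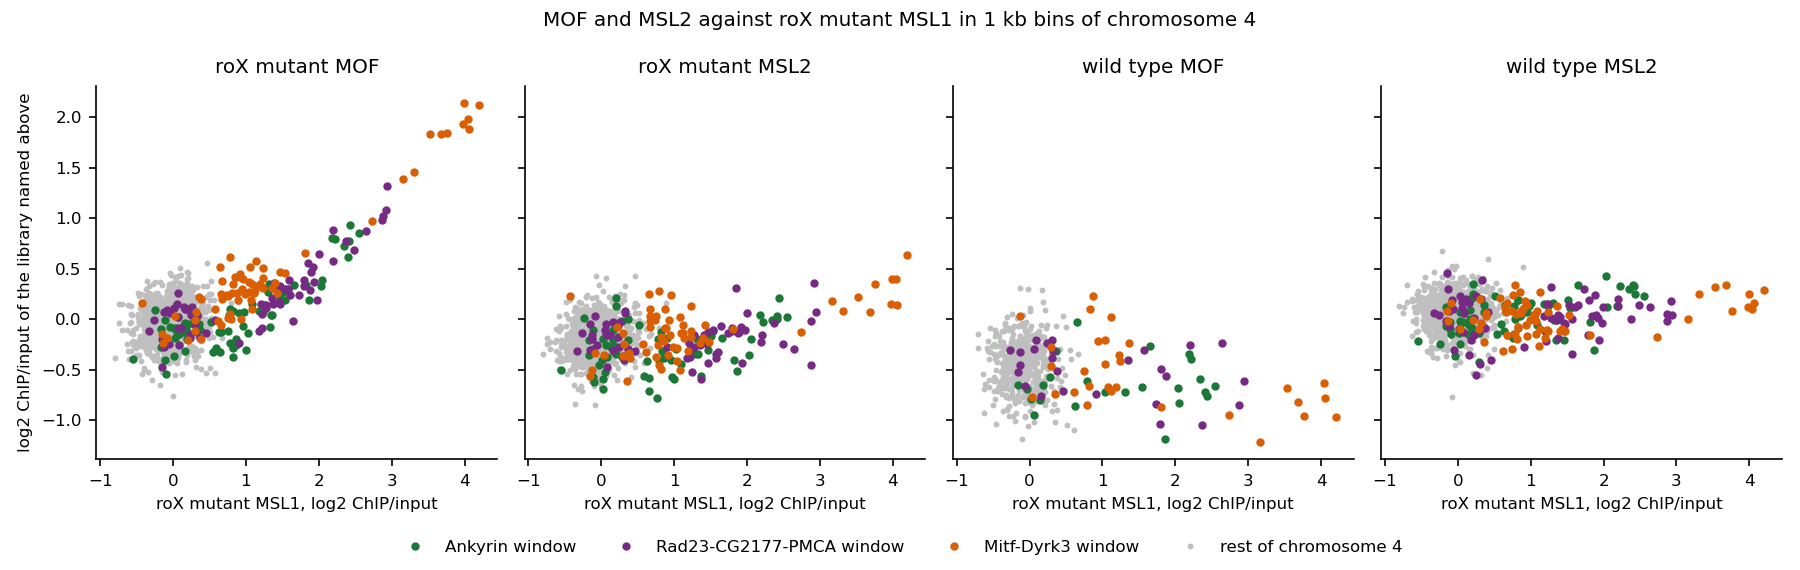
Each point is a 1 kb bin of chromosome 4, with its *roX* mutant MSL1 level on the x axis and the level of the library named above the panel on the y axis, both as log2 ratio of ChIP to input; colours mark the 3 windows and grey the rest of the chromosome. *roX* mutant MOF climbs with MSL1 in all 3 windows up to 2.14, while *roX* mutant MSL2 stays below 0.64 and wild type MOF lies at or below 0.23 in every window bin.

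MOF was set against MSL1 by groups of bins. Over the window bins with MSL1 under 0.5 the median MOF level in *roX* mutants was -0.086, and it was 0.057 for MSL1 of 0.5 to 1, 0.28 for 1 to 2, 0.80 for 2 to 3 and 1.86 for 3 and over. The windows differed at low MSL1. For 0.5 to 1 the MOF median was -0.13 in the Ankyrin window (18 bins), -0.12 in the Rad23 window (2 bins) and 0.25 in the Mitf window (24 bins), and for 1 to 2 it was 0.17, 0.27 and 0.35 in the same order. For 2 to 3 it was 0.77 in the Ankyrin window and 0.89 in the Rad23 window, and the group of 3 and over is 10 bins of the Mitf peak alone.

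On X the bins of the same 5 groups had MOF medians of 0.035, 0.14, 0.28, 0.69 and 1.41. The groups were not at equal MSL1 in both places, with MSL1 medians of 0.085 in the windows and 0.32 on X in the lowest group and of 3.87 in the windows and 3.35 on X in the highest. For MSL1 of 2 to 3 the MSL1 medians were 2.41 in the windows and 2.37 on X, with MOF medians of 0.80 and 0.69. For 1 to 2 they were 1.37 and 1.31, with MOF at 0.28 in both places. On X only 392 of 1446 bins under 0.5, 370 of 1196 at 0.5 to 1 and 384 of 546 at 1 to 2 had a MOF value. Whether MOF at equal MSL1 differs between chromosome 4 and X was not tested.

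**Figure D3:**
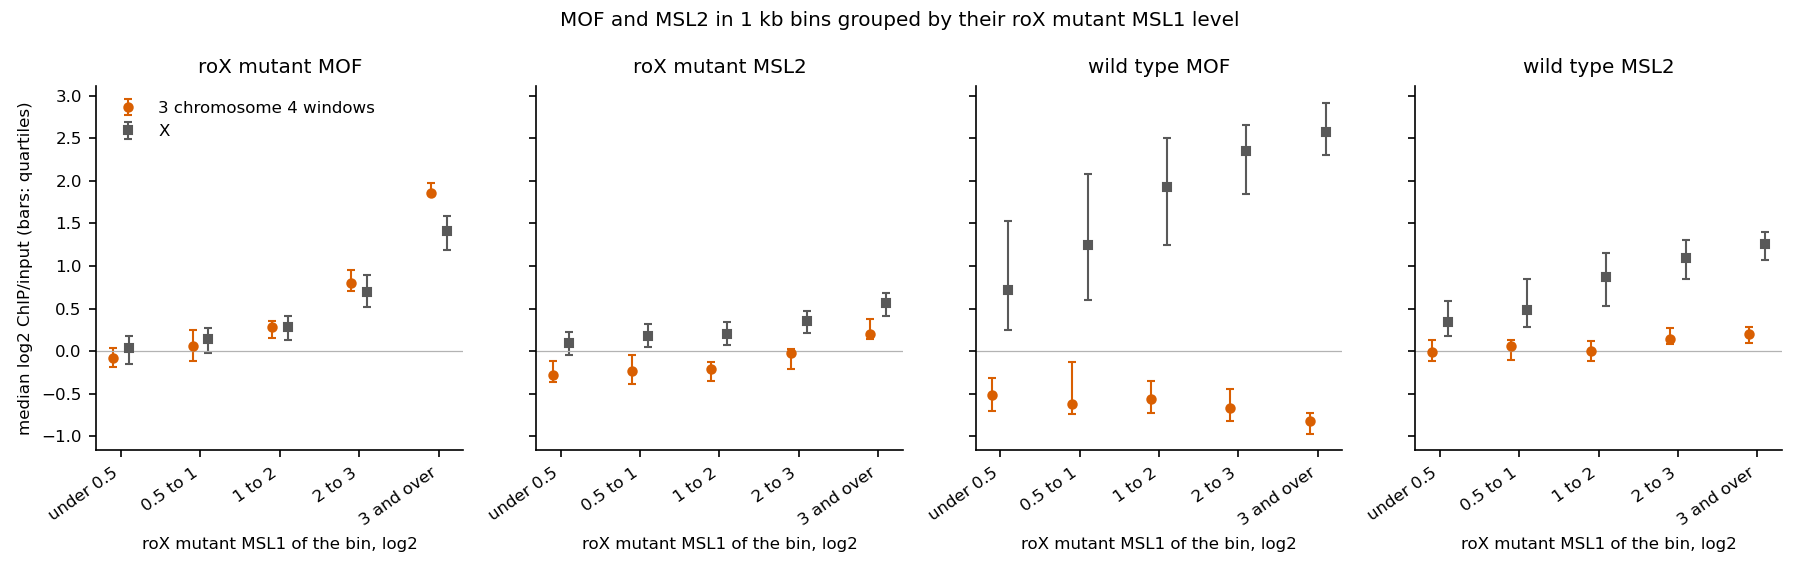
Median log2 ratio of ChIP to input (y axis, bars from the lower to the upper quartile) of 1 kb bins grouped by their *roX* mutant MSL1 level (x axis), for the 3 chromosome 4 windows (orange circles) and X (grey squares), with 1 panel per library. *roX* mutant MOF follows MSL1 in both places, with 1.86 in the windows and 1.41 on X in the group of 3 and over, whose MSL1 medians are 3.87 in the windows and 3.35 on X. In that group wild type MOF is at -0.82 in the windows and 2.57 on X, and wild type MSL2 at 0.20 in the windows and 1.26 on X.

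The ChIP-seq level of MSL2 was low in the same places. None of 199 window bins reached 1 in *roX* mutant MSL2, and 0.00851% of all bins in the genome did. On X only 1 of 5218 bins reached 1 in this library, and the highest was at 1.05. Missing the limit of 1 therefore says little about MSL2 in the windows. The median over the domain was -0.20 for the Ankyrin window, -0.18 for the Rad23 window and -0.078 for the Mitf window, against -0.19 in the rest of chromosome 4. Relative to the rest these medians were at -0.0061, 0.010 and 0.11 in the same order. The share of domain bins above the median of the rest was 10 of 22, 19 of 38 and 22 of 28. By immunostaining of *roX* mutants, the paper reports all protein components, MSL2 among them, together at the stained bands of the same chromosome. Its methods call the MSL1 ratios the most distinct ones in *roX* mutants. Whether MSL2 is missing from the domains was not tested.

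A small MSL2 signal was found at the MSL1 peak of the Mitf window. The 13 bins from 1223001 to 1236000 were at 0.22, 0.07, 0.39, 0.63, 0.14, 0.40, 0.14, 0.35, 0.08, 0.18, -0.12, -0.09 and -0.14 in *roX* mutant MSL2. The bin at 0.63 is the one with the highest MSL1, and it was the only domain bin of the 3 windows above the highest bin of the rest of chromosome 4, which was at 0.43. The smoothed MSL2 maximum was 0.12 kb from that of MSL1, and 3 short bound regions of MSL2 (220, 670 and 410 bp) lay within the peak. Chromosome 4 had 8 such regions in all, with 1 in the Rad23 window, 0 in the Ankyrin window and the others outside the windows. In the Ankyrin and Rad23 windows the smoothed MSL2 maximum lay 21.65 and 66.65 kb away from that of MSL1, outside the domains. That of the Rad23 window was a narrow maximum in a 1 kb bin with a mean of only -0.19.

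Lower MSL2 signals were seen near the other MSL1 summits too. In the Rad23 window the highest domain bins of *roX* mutant MSL2 lay in the first MSL1 peak, with 0.31 at 328001 to 329000 and 0.36 at 332001 to 333000, but the bins between them were at -0.04, 0.07 and -0.45. Within 2.5 kb of the MSL1 summit the *roX* mutant MSL2 mean was above the rest of chromosome 4 by 0.17 in the Ankyrin window, 0.26 in the Rad23 window and 0.52 in the Mitf window. Wild type MSL2 was there above its own rest by 0.27, 0.0095 and 0.15 in the same order. In the Ankyrin window *roX* mutant MSL2 was also 0.20 above the rest at 25 kb past the summit, where the MSL1 mean was 0.24. The Ankyrin value is thus particular neither to the summit nor to *roX* mutants. In the Ankyrin window the *roX* mutant MSL2 bins from 137001 to 144000 lay between -0.02 and 0.21, against a median of -0.33 in the window's bins outside the domain. By MSL1 level the MSL2 medians over the windows were -0.27, -0.23, -0.20, -0.024 and 0.20 in *roX* mutants, and on X they were 0.094, 0.18, 0.21, 0.35 and 0.56. The MSL2 medians in the windows were thus below those on X in every group. The rest of chromosome 4 was also below X in this library, with medians of -0.19 and 0.22, and X was above the windows in the lowest MSL1 group too. The *roX* mutant MSL2 library also had fewer positions with a value, 50.8% to 54.5% in the windows, where *roX* mutant MSL1 had 62.7% to 72.3%. The part of depth in the low MSL2 level was not tested, because read numbers are not given with the ratios.

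In wild type no bin of the 3 windows reached the limit of 1. None of 81 window bins of wild type MOF and none of 214 of wild type MSL2 reached 1, where 3.75% and 0.884% of all bins in the genome did. Over the domains the median of wild type MOF was -0.69 for the Ankyrin window, -0.56 for the Rad23 window and -0.68 for the Mitf window, against -0.44 in the rest of chromosome 4. The median of wild type MSL2 was 0.13, 0.032 and 0.041 in the same order, against 0.049 in the rest.

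Wild type MOF differed between the MSL1 peaks. In the Mitf peak 10 of 13 bins had a wild type MOF value, from -1.22 to -0.63 with a median of -0.85. In the Rad23 window the 4 measured bins of the first stretch were at -1.05, -0.62, -0.85 and -1.04, with a median of -0.94, while the 7 measured bins of the second had a median of -0.41, near that of the rest of chromosome 4. In the Ankyrin window the measured bins from 137001 to 144000 lay between -0.77 and -0.35. With at least 50 values per bin the level of the Rad23 domain minus the rest was 0.058 in place of -0.12, so that its sign is not settled. In bins where *roX* mutant MSL1 was 3 and over, the wild type MOF median was -0.82 in the windows, against 2.57 on X. Wild type MOF had a value at only 14.7% to 20.5% of the positions in the windows, where *roX* mutant MOF had 62.9% to 67.3%, so that it rests on 13 bins of the Ankyrin domain, 11 of the Rad23 domain and 18 of the Mitf domain.

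Wild type MSL2, with values at 62.0% to 70.0% of the positions, covered nearly every domain bin. In the Ankyrin window its bins from 138001 to 146000 were at 0.33, 0.33, 0.30, 0.34, 0.23, 0.25, 0.43 and 0.34, all above the median of the rest of chromosome 4 and all below its highest bin of 0.68. Wild type MSL2 was thus slightly raised where *roX* mutant MSL1 was highest in this window, with a Pearson's r of 0.48 between them over 71 bins. The r was 0.075 in the Rad23 window, 0.33 in the Mitf window and 0.022 in the rest of chromosome 4. Similar wild type MSL2 levels also occurred in the rest, with 0.43 and 0.53 at 478001 to 480000, where *roX* mutant MSL1 was at 0.20 and -0.02. In Ankyrin domain bins of MSL1 at 1.5 or more the wild type MSL2 level minus the rest was 0.19. With the autosomal arms subtracted in place of the rest, the level of the whole Ankyrin domain was -0.077. In the Mitf peak the highest of 13 bins was at 0.34, and in the Rad23 domain the highest of 38 was at 0.32.

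**Figure D4:**
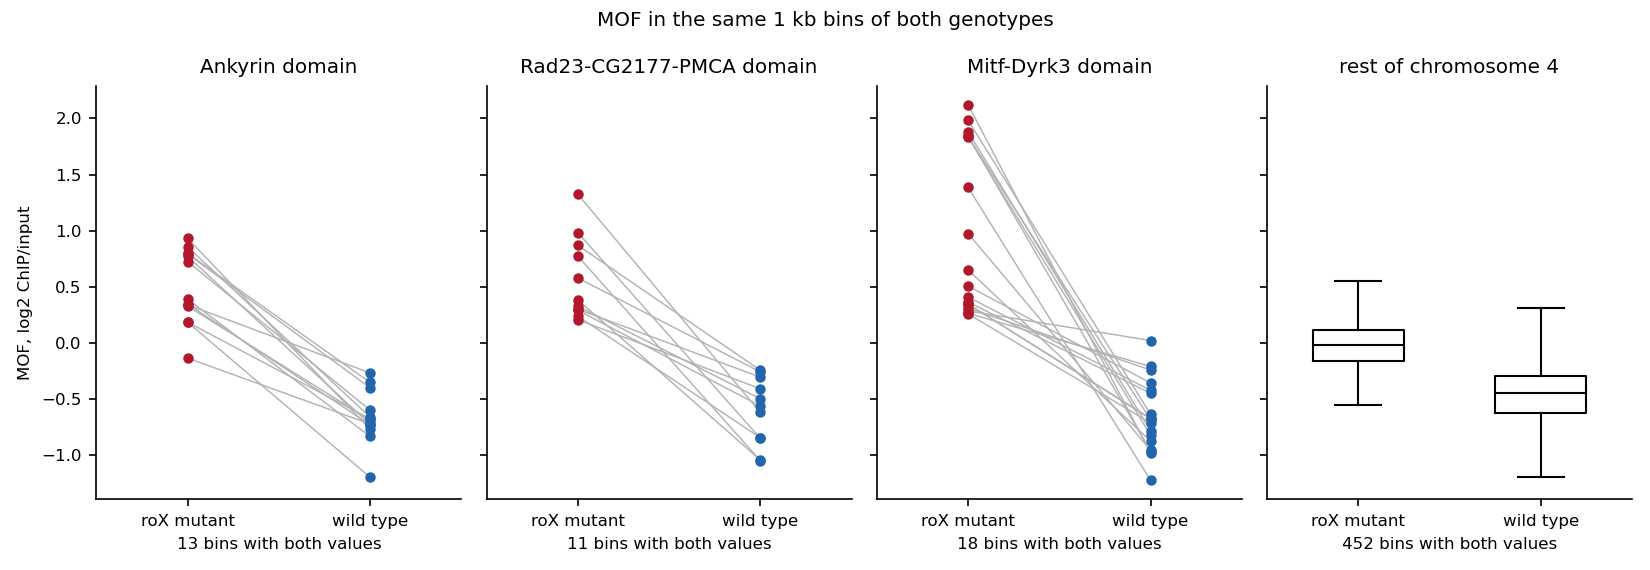
MOF log2 ratio of ChIP to input (y axis) in *roX* mutants (left, red) and wild type (right, blue), with a line joining the values of the same 1 kb bin, for the bins of each domain that have both values; the last panel gives the 452 such bins of the rest of chromosome 4 as boxes (median and quartiles) with whiskers to the lowest and highest bin. All 13, 11 and 18 domain bins are higher in *roX* mutants, by medians of 1.19, 1.08 and 1.27, where the median difference in the rest is 0.44 and 425 of its 452 bins are higher in *roX* mutants.

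The 2 MOF libraries were compared bin by bin. Over the bins with both values the MOF median of the Ankyrin domain was 0.39 in *roX* mutants and -0.69 in wild type, that of the Rad23 domain 0.38 in *roX* mutants and -0.56 in wild type, and that of the Mitf domain 0.58 in *roX* mutants and -0.68 in wild type. The difference, *roX* mutant minus wild type, was above 0 in all 13, all 11 and all 18 bins, as it was in 94.0% of the 452 bins of the rest of chromosome 4, and had medians of 1.19, 1.08 and 1.27. It was 1 or more in 10, 6 and 11 of them, where 0.24% of all bins in the genome were. In the Mitf domain it went up to 3.10.

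The whole of chromosome 4 was shifted in this comparison. In the rest of the chromosome the median difference of MOF was 0.44 and the highest 1.31, so that relative to the rest the domain medians were higher by 0.75 for the Ankyrin window, 0.64 for the Rad23 window and 0.83 for the Mitf window. Of the domain bins, 5 in the Ankyrin window, 4 in the Rad23 window and 9 in the Mitf window lay above the highest difference in the rest. The scaling of the 2 libraries is not given, so only this relative difference can be read. The choice of positions mattered here. With positions measured in both genotypes alone, the *roX* mutant MOF level over the domain minus that of the rest was 0.48 for the Ankyrin window, 0.42 for the Rad23 window and 0.76 for the Mitf window. With all positions it was 0.27, 0.32 and 0.47. Wild type MOF minus its rest at the positions measured in both was -0.25, -0.12 and -0.23 in the same order. The difference between genotypes thus also holds a lower wild type level in the domains, whose sign is not settled for the Rad23 window.

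For MSL2 the difference between genotypes was not raised in the Ankyrin window or in the Rad23 window. Its median, *roX* mutant minus wild type, was -0.33 over the Ankyrin domain and -0.24 over the Rad23 domain, against -0.25 in the rest of chromosome 4. In the Mitf domain it was -0.041, with 12 of 28 bins above 0 and a highest bin of 0.34. In the Ankyrin domain 0 of 22 bins were above 0 and in the Rad23 domain 4 of 38. The rest of chromosome 4 had 13.2% of 848 bins above 0 and a highest bin of 0.49, which no domain bin exceeded. No domain bin reached a difference of 1, which 0.00445% of all bins in the genome did.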

How the data were processed

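The deposited values, used as the authors made them, are log2 ratios of ChIP to input at positions 10 bp apart. Per the study's methods, uniquely mapped SOLiD reads were aligned to release 5 with Bioscope. The libraries of a genotype share an input, and read numbers, the scaling and the rule for positions without a value are not given in the sources used here, so that the depth is unknown. From the deposited log2 ratios, means of 1 kb bins with at least 25 values were computed with Python 3.11.15, numpy 2.4.6 and pandas 2.3.3. A domain is the set of bins with *roX* mutant MSL1 of 1 or more, and levels were also given minus the median of chromosome 4 outside the windows. Summits and bound regions used medians of 500 bp windows and the highest 1.5% of the smoothed values. The procedure was tested on simulated data in which values were missing at random positions. That test does not cover stretches of several kb without a value, as the windows have. The genes to be named are the 6 given above. Members, windows and rules were chosen with earlier results of these data known. Gene order came from RefSeq's table of Release 6, without its coordinates. Alternatives were other bins, limits, means against medians, and levels subtracted. The autosomal arms were always taken without the 2 Mb at their centromere ends. The 3 files of *D. simulans* were not used.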

Additional observations from a re-analysis of the deposited data

How the results depend on the processing

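Of 156 recomputed values of the 18 widths and levels, 135 stayed within 1.5 times (widths) or within 1 SD of single bins of the rest of chromosome 4 (levels minus that rest), and 21 moved. This SD is a wide limit for medians over many bins: 38 levels within it changed by over 1.5 times or in sign, 16 of them in sign. Among these, *roX* mutant MOF of the Ankyrin window was 0.075 with MSL1 at 0.5 or more, wild type MOF of the Rad23 window 0.058 with at least 50 values per bin, and wild type MSL2 of the Ankyrin window -0.077 with the arms subtracted. These changes of sign were in MSL2 levels of either genotype and, once, in wild type MOF of the Rad23 window. Levels of *roX* mutant MSL1 and MOF kept their sign. Domains of MSL1 at 0.5 or more had widths of 45 kb (Ankyrin window) and 55 kb (Mitf window), with MSL1 levels of 1.20 and 1.13. At 1.5 or more the width was 7 kb in the Rad23 window, MSL1 was 2.11, 1.98 and 3.74 in the Ankyrin, Rad23 and Mitf windows, MOF in *roX* mutants 0.51 (Ankyrin) and 1.84 (Mitf), and MSL2 0.35 (Mitf). Bound regions of the methods were 9.04 kb (Ankyrin) and 3.30 kb (Rad23) wide. With the median of the autosomal arms subtracted, *roX* mutant MSL2 was -0.20, -0.19 and -0.083 and wild type MOF -0.84, -0.71 and -0.83 in the same order of windows, since chromosome 4 as a whole was below the arms in these libraries. At positions measured in both genotypes, *roX* mutant MOF was 0.48 (Ankyrin) and 0.76 (Mitf). No paired analysis was possible because each antibody and genotype has 1 library and no test was run. The read depth is unknown, and wild type MOF had the fewest positions with a value in the windows.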
